A study of Mus musculus with 8 samples.

Results

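TEC rows of the deposited count table are gene models that await experimental proof: places where transcript evidence marks a possible gene that has not been proven. The table held 26709 rows, of which 1498 carried the biotype TEC. The 692 rows described here reached a sum of at least 80 estimated counts over the 8 libraries, and the other 806 did not. Gm48958 and Gm45033 stood just inside that minimum at 80 counts each, and Gm45760 at 79.6 counts stood just outside it. By overlap on GRCm39, 393 members (56.8%) lay on the strand of a protein-coding gene they overlapped, 140 (20.2%) overlapped one on the opposite strand alone, and 159 (23.0%) overlapped none. A member over genes on both strands, of which there were 5, counted as same strand.

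RNA was sequenced from 8 mammary tumours grown from EMT6, a mouse mammary carcinoma cell line, in syngeneic Balb/c mice labelled wild type. The IgG group (n = 4) received IgG and the GrB group (n = 4) received GrB-Fc-KS49, a human granzyme B fusion protein directed to the membrane protein EMP2, in 3 treatments over 10 days. All animals carried the same implanted line, and no source used here gives their age. The titles of IgG replicate 1 and GrB replicate 3 end in U, whose meaning is not given either. Nothing in the sources ties each tumour to an animal of its own, so a p-value reflects only the spread among these 8 tumours. The label names epithelial tumour cells, but the tumours are bulk tissue, and Epcam and Cldn7, which define epithelium, were at 2.73 to 16.0 and 0.113 to 0.439 CPM, while Krt8, a keratin of simple epithelia, was at 391 to 631 CPM.

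Most protein-coding genes are copied into a long precursor RNA whose introns are spliced out and degraded in the nucleus, while the joined exons are exported. An RNA read inside an intron, on the strand of the gene, may come from that precursor or from a separate short transcript with its own start and poly(A) tail. The sequence AATAAA, or its common variant ATTAAA, lies a short way upstream of most poly(A) sites and directs cleavage of the RNA. Counts of reads cannot tell the precursor from a separate transcript, and in bulk tissue fewer cells of a type and less RNA per cell cannot be told apart.

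Members were short and nearly all unspliced. GENCODE M21, matched by gene identifier, held all 692 and gave 678 of them a single exon. It typed 687 as TEC and 5 as protein-coding, namely 9330161L09Rik, 5730596B20Rik, Gm10645, 4930518I15Rik and Gm17334. The median span was 2354 bases for same-strand, 2249 for opposite-strand and 2199 for non-overlapping members. Of the same-strand members, 390 of 393 lay wholly within their gene, and 361 shared no base with any of its exons and are called intron-only below. The other 32 shared exon bases, at a median of 10.0% of the span. Members were spread unevenly over the genome: 112 (16.2%) were on chromosome 5 and 89 (12.9%) on chromosome 1, which held 6.04% and 6.03% of protein-coding rows, while chromosome 11 held 0.434% of members and 8.10% of protein-coding rows.

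A poly(A) signal (AATAAA or ATTAAA, searched on the transcript's own strand, the 2 motifs counted once where both occurred) stood in the last 50 bases of 21.6% of same-strand, 51.7% of opposite-strand and 49.1% of non-overlapping member transcripts. The same window held it in 50.2% of all protein-coding and 30.9% of all lncRNA-type transcripts, and a window of that length in the middle of the members held it in 4.84%. The annotated ends below belong to members whose values are given later, and include ends with a motif and ends with none. The distance of a motif from the end was not examined. Each line gives the last 50 bases of the transcript, 5′ to 3′ (GENCODE M21 transcript sequence), with the signal in capitals. A match describes these letters only, and no match says nothing about where the RNA ends.

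Among intron-only members that were higher in GrB tumours, Gm42515 (chr3:126531146-126534728, plus strand, intron of Camk2d) carries ATTAAA, while Gm37954 (chr1:131304199-131306269, minus strand, intron of Srgap2) and Gm38120 (chr1:13413787-13418428, minus strand, intron of Ncoa2) carry neither motif. Gm43679 (chr5:3801901-3805577, minus strand, intron of Ankib1) was lower in GrB tumours.
Gm42515: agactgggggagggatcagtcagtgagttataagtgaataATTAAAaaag
Gm37954: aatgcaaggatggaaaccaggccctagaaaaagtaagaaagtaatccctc
Gm38120: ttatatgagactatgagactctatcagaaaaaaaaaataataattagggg
Gm43679: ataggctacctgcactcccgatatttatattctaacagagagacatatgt

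Outside protein-coding genes, Gm44250 (chr6:5216258-5220486, minus strand) had the highest level of its class with nearly equal groups, Gm42547 (chr6:28211007-28214804, minus strand) was lower and 5930409G06Rik (chr3:45227859-45229402, minus strand) and Gm44829 (chr7:58968379-58971571, plus strand) were higher in GrB tumours. All 4 carry a signal, and 5930409G06Rik carries both motifs.
Gm44250: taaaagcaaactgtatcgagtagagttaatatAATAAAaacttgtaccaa
Gm42547: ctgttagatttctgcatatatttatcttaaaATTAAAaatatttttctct
5930409G06Rik: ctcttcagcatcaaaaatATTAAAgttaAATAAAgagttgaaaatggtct
Gm44829: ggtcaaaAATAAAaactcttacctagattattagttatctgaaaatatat

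Libraries held 74.0 to 82.6 M counts in the IgG group and 74.6 to 80.9 M in the GrB group, so that 1 count was worth 0.0121 to 0.0135 CPM (counts scaled to 1e6 per library, TMM-adjusted). Members took 0.0561% to 0.0767% of counts in IgG and 0.0753% to 0.116% in GrB tumours. GrB replicate 1 stood apart with the highest summed level in each overlap class, and IgG replicate 4 was the highest IgG library in each. Whether strand was used in counting is not stated. Counts of 334 of the 361 intron-only members were whole numbers (within 1e-09) in every library, against 6 of the 32 members that shared exon bases. On the opposite strand 33 of the 34 members that shared no exon base with the gene had whole counts, against 7 of the 106 that did, so the levels of exon-sharing members on either strand, which may include reads divided among rows, are uncertain.

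TEC members were mostly higher in GrB tumours, although no single member passed the test over all genes. Of 660 members that passed the low-count filter, 234 were higher and 17 lower in GrB tumours at an unadjusted p under 0.05 (edgeR quasi-likelihood), where 17.3% and 17.8% of all 19718 rows tested were, 35.1% in either direction. The other 32 did not pass. Of those tested, 10, all intron-only, had no IgG library at 10 counts and so passed through the GrB group alone, and 1 had no GrB library at 10 counts. Further members with only some IgG libraries at that level, such as Gm37954 and 5930409G06Rik, also needed GrB libraries to pass. Their number was not counted. The median log2 fold change of the 660 was 0.48, against 0.03 over all rows. With no filter the counts over all 692 members were 247 higher and 17 lower, and 511 fold changes were above 0, where 15% of all 26709 rows were higher and 13.5% lower. Among the tested members, groups did not overlap upward in 97 same-strand, 13 opposite-strand and 11 non-overlapping ones and downward in 15 in all, against 10.3% and 15.3% of all rows tested. Without the filter they did not overlap, with every GrB tumour higher, in 132 of the 692 members and, with every GrB tumour lower, in 15, against 8.95% and 11.7% of all rows. Of all 26709 rows, 6991 did not pass the filter, so the unfiltered shares include rows under the 80 counts that every member reached. Rows of low level leaned the same way in general: of the 4906 tested rows with a mean under 1 CPM, 18.7% were higher and 4.28% lower. At an adjusted p under 0.05 edgeR called 0 members, with a smallest adjusted p of 0.0619, and limma-voom 0. DESeq2 called 150 of 627 members with an adjusted p (23.9%, where it called 24.5% of all rows), and edgeR called 22 (3.32%, against 6.32% of all rows) without GrB replicate 1 and 104 (15.5%, against 17.1%) without GrB replicate 4, so members were not called more often than other rows. Calls of members were mostly higher, with 22.8%, 3.17% and 14.5% of members called higher in these settings, where 11.7%, 2.23% and 7.12% of all rows were called higher.

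Intron-only members carried most of this difference. Of 341 tested, 177 were higher and 4 lower at an unadjusted p under 0.05, with a median log2 fold change of 0.92. Over all 361, with no filter, 52.4% were higher and 4 members lower, and the median was 0.94. Groups did not overlap upward in 101 (28.0%) and downward in 6, against 8.95% and 11.7% of all rows. Without GrB replicate 1, 124 of 342 (36.3%) were higher with a median of 0.69, where 12.3% of all rows were higher. Without both U libraries 122 of 340 (35.9%) were higher with a median of 0.82, where 13.9% of all rows were. The 31 tested members that shared exon bases had 7 higher, 1 lower (Gm42793, within Spp1) and a median of -0.09. Opposite-strand members had 24 of 138 higher and 8 lower with a median of 0.18, and non-overlapping members 26 of 150 higher and 4 lower with a median of 0.29. These are 17.4% and 17.3% higher, at the rate of all rows tested (17.3%), so higher members in these classes were no more frequent than higher rows in general. Differences between these classes were not tested, since members are not replicates.

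**Figure D1:**
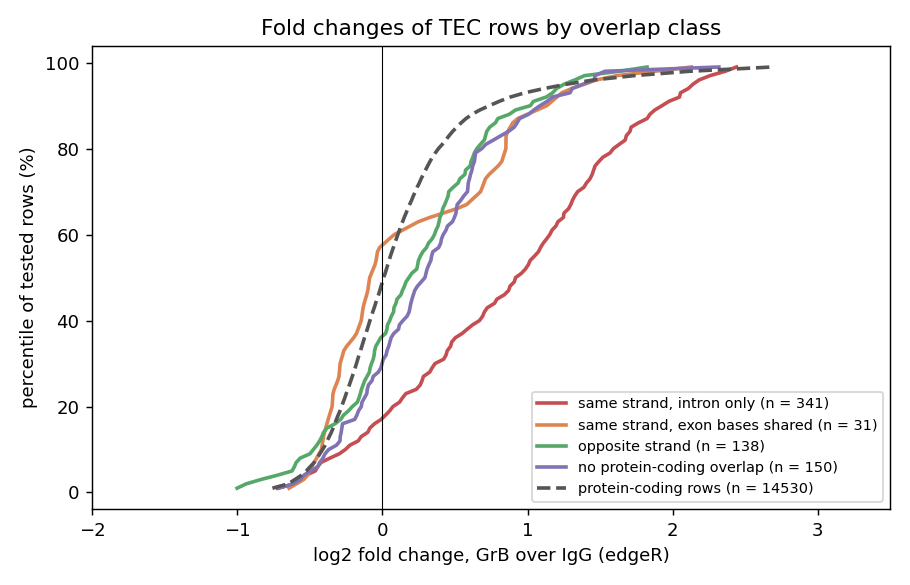
Percentile (y axis, %) of tested rows at or below each log2 fold change, GrB over IgG (x axis), for the 4 placements of TEC members and for protein-coding rows. The intron-only curve crosses the 50% level at 0.92, while protein-coding rows cross it at 0.01.

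The summed level of the 361 intron-only members was 187, 188, 198.98 and 262 CPM in IgG replicates 1 to 4 and 468, 272, 335 and 298 CPM in GrB replicates 1 to 4. Every GrB tumour was above every IgG tumour, with IgG replicate 4 close below GrB replicate 2. That separation rested on Gm44510, the most abundant of them and of uncertain counts: without it IgG replicate 4 stood at 205 CPM, above GrB replicate 2 at 188 CPM. The means were 209 ± 36.0 and 343 ± 87.2 CPM (SD, n = 4 each), a ratio of 1.64, which was 1.44 without GrB replicate 1. The median member stood at 0.181, 0.171, 0.179 and 0.310 CPM in the IgG and at 0.538, 0.293, 0.393 and 0.323 CPM in the GrB libraries, so by the median IgG replicate 4 overlapped GrB replicate 2. Members that shared exon bases summed to 71.9 ± 13.1 CPM in IgG and 67.3 ± 2.13 CPM in GrB tumours, within the spread of the IgG group. Opposite-strand members summed to 133 to 154 CPM in IgG and 144 to 180 CPM in GrB tumours, and these ranges overlapped.

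**Figure D2:**
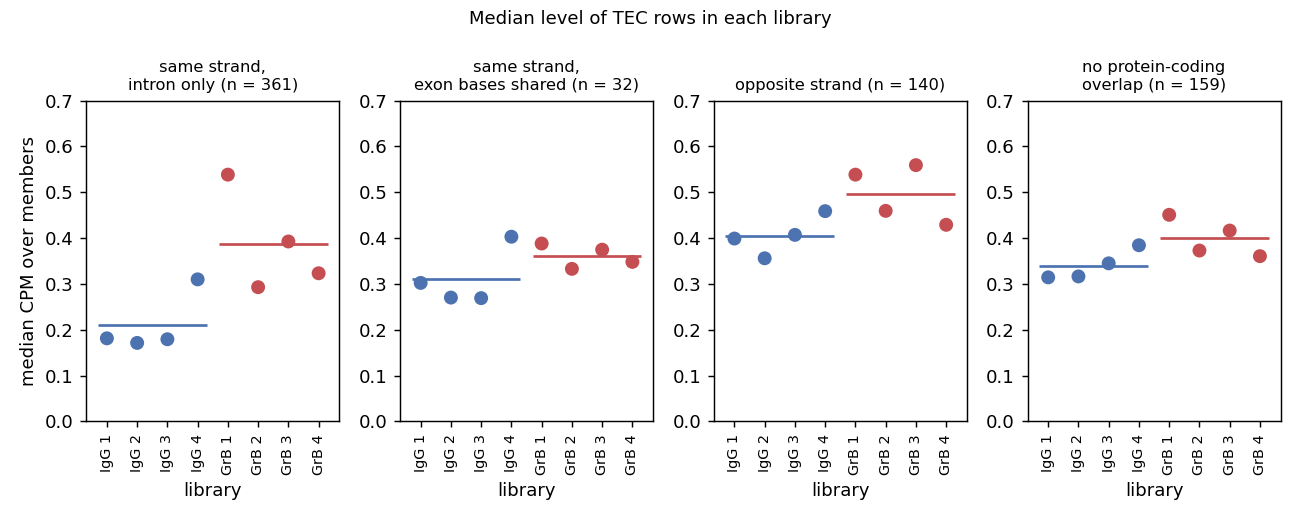
Median TMM-scaled CPM over the members of each placement (y axis) in each library (x axis), IgG in blue and GrB in red, with lines at the group means. Intron-only members sit between 0.171 and 0.310 CPM in IgG and between 0.293 and 0.538 CPM in GrB tumours; the other placements lie closer together.

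Genes that held intron-only members did not share this direction. Of the 297 such genes tested, 10 (3.37%) were higher and 129 (43.4%) lower at an unadjusted p under 0.05, where 16.6% and 20.4% of all protein-coding rows tested were, with a median log2 fold change of -0.22. Their levels summed to 33221 ± 1300 CPM in IgG and 28427 ± 3991 CPM in GrB tumours (SD, n = 4 each). Of 339 intron-only members with a tested gene, 219 had a fold change above 0 while that of their gene was below 0. Of all 341 tested intron-only members 281 were above 0, and of the 297 genes 70 were. Many such pairs would therefore occur without any link between a member and its gene. Across 370 same-strand pairs the fold changes of member and gene had a Pearson's r of 0.05, a description across pairs that share libraries.

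The change of a member relative to its gene was tested over all 2162 pairs of a non-coding row and the protein-coding gene it overlapped, with limma on the difference of their log2 CPM. Over all pairs the ratio was called higher in 17.9% and lower in 1.76% at an adjusted p under 0.05. Of the 504 TEC pairs, 176 had a higher and 6 a lower ratio in GrB tumours, and of the 339 intron-only pairs 150 had a higher and 3 a lower one, with a median change of 1.11 in log2 ratio. With no low-count filter, 128 of 361 intron-only pairs had a higher and 1 a lower ratio, with a median of 1.12. At an unadjusted p under 0.05, 224 of these 361 were higher, where 24.5% of all pairs were. Without the filter, all pairs include rows under the 80 counts that every TEC member reached. In opposite-strand pairs 20 of 134 had a higher and 3 a lower ratio, with a median of 0.29. Among same-strand lncRNA rows 40 of 153 pairs had a higher and 5 a lower ratio.

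Calls of the ratio test rested on the number and choice of libraries. Higher calls among the TEC pairs numbered 7, 5 and 6 without IgG replicate 1, 2 or 3, 217 without IgG replicate 4, 100 without GrB replicate 1, 82 without GrB replicate 3 and 0 without both U libraries. Calls over all pairs, in either direction, moved likewise. They numbered 425 with all libraries and, in the same order of settings, 23, 21, 21, 497, 252, 202 and 0. Without GrB replicate 1, without GrB replicate 3 and without both U libraries the intron-only median was 0.87, 1.10 and 1.04, and without IgG replicate 1, 2 or 3 it was 1.07, 1.03 and 1.05. At an unadjusted p under 0.05 the ratio was higher in 210 of the 339 intron-only pairs, where 31.4% of all pairs were, and in 164 of 338 without both U libraries, where 22.7% were. Lower calls, 6 in all, numbered 2 without GrB replicate 1, 2 or 3, 1 without IgG replicate 4 and 0 without IgG replicate 1, 2 or 3 or both U libraries.

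**Figure D3:**
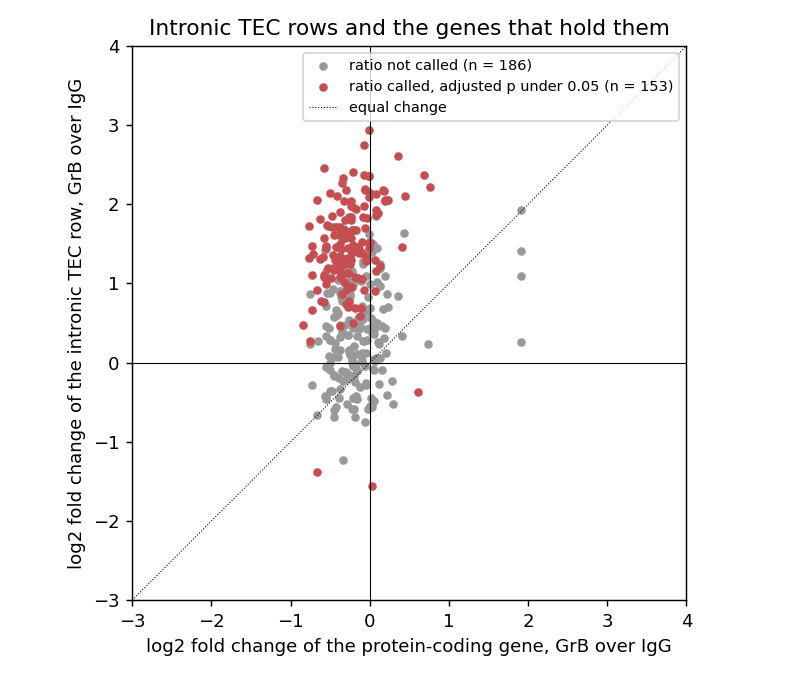
Log2 fold change (GrB over IgG) of the 339 intron-only members (y axis) against that of the gene that holds each (x axis), red where the ratio was called at an adjusted p under 0.05. Most red points lie above 0 for the member and at or below 0 for the gene, off the dotted line of equal change.

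Gm42515 had the smallest p of the ratio test among TEC pairs. It lies in an intron of Camk2d, which encodes a calcium/calmodulin-dependent protein kinase. Its level was 0.544, 0.633, 0.414 and 0.868 CPM in IgG and 2.90, 1.13, 1.99 and 2.05 CPM in GrB tumours. Every GrB value was above every IgG value, and its log2 fold change was 1.71 (SE 0.33). Camk2d itself was at 198.3, 227, 201 and 172 CPM in IgG and 147, 138, 155 and 176 CPM in GrB tumours, with a log2 fold change of -0.38 (SE 0.11), and GrB replicate 4 overlapped the IgG group. The log2 ratio changed by 2.02 (SE 0.32, limma, adjusted p = 0.00878).

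Gm37954 lies in an intron of Srgap2, which encodes a GTPase-activating protein that acts on cell shape and migration. It was at 0.121, 0.105, 0.124 and 0.136 CPM in IgG and 0.789, 0.333, 0.404 and 0.361 CPM in GrB tumours. The IgG values lay within a few counts of each other and all GrB values were above them, with GrB replicate 1 far above the rest. Those IgG values were near 10 counts, about the level the low-count filter asks for. Gm37954 therefore passed mainly through the GrB group, where it is high, and its fold change and ratio rest on few IgG counts. Srgap2 was at 65.4 to 71.3 CPM in IgG and 57.6 to 63.1 CPM in GrB tumours, lower in all 4. The log2 ratio changed by 1.86 (SE 0.30, limma, adjusted p = 0.0109).

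Phxr4 lies in an intron of Maml2, which encodes a coactivator of Notch target genes. It was at 0.145, 0.171, 0.152 and 0.322 CPM in IgG and 1.25, 0.573, 0.726 and 0.746 CPM in GrB tumours, with no overlap. Here the gene was not lower: Maml2 was at 26.6 to 30.4 CPM in IgG and 29.4 to 36.1 CPM in GrB tumours, and the groups overlapped. The log2 ratio changed by 1.75 (SE 0.29, limma, adjusted p = 0.0109).

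C730045M19Rik, in an intron of Sppl3, an intramembrane protease gene, was at 0.109 to 0.152 CPM in IgG and 0.346 to 0.901 CPM in GrB tumours. Its log2 fold change was 2.10 (SE 0.36) and that of Sppl3 was -0.01 (SE 0.07). The IgG values of C730045M19Rik were also near 10 counts, so its fold change rests on few IgG counts. Gm38120, whose end is printed above and which was chosen after its values were seen, lies in an intron of Ncoa2, a nuclear receptor coactivator gene. It was at 0.0846, 0.0527, 0.0690 and 0.0992 CPM in IgG and 0.814, 0.320, 0.274 and 0.311 CPM in GrB tumours. Gm38120 was among the 10 tested members with no IgG library at 10 counts. It therefore passed the low-count filter through the GrB group, where it is high, and its fold change rests on few IgG counts. Ncoa2 was lower, at 36.0 to 38.8 CPM in IgG and 18.5 to 30.3 CPM in GrB tumours, with no overlap in either row.

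Few intronic members were lower. Gm43679, in an intron of Ankib1, a ubiquitin ligase gene, was at 1.08, 1.11, 1.12 and 1.03 CPM in IgG and 0.313, 0.373, 0.404 and 0.572 CPM in GrB tumours. Its log2 fold change was -1.38 (SE 0.22). Ankib1 was also lower in all 4 GrB tumours, at 39.1 to 65.2 against 81.2 to 91.0 CPM, but by less, and the log2 ratio changed by -0.68 (SE 0.20, limma, adjusted p = 0.039).

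Gm37776, in an intron of Lekr1, was at 0.166 to 0.384 CPM in IgG and 0.0622 to 0.155 CPM in GrB tumours, with the log2 ratio at -1.39 (SE 0.36, limma, adjusted p = 0.0265) and Lekr1 at 2.26 to 3.14 CPM over both groups. Gm43890, in an intron of Mthfd2, a mitochondrial folate enzyme gene, was at 0.303 to 0.459 CPM in IgG and 0.100 to 0.261 CPM in GrB tumours, and the fourth intron-only member lower at an unadjusted p under 0.05 was Gm47246, within Naa35. Gm37261, within Mgst2, a glutathione transferase gene, had a lower ratio through its gene: Mgst2 had a log2 fold change of 0.60 and Gm37261 one of -0.36 (SE 0.28).

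**Figure D4:**
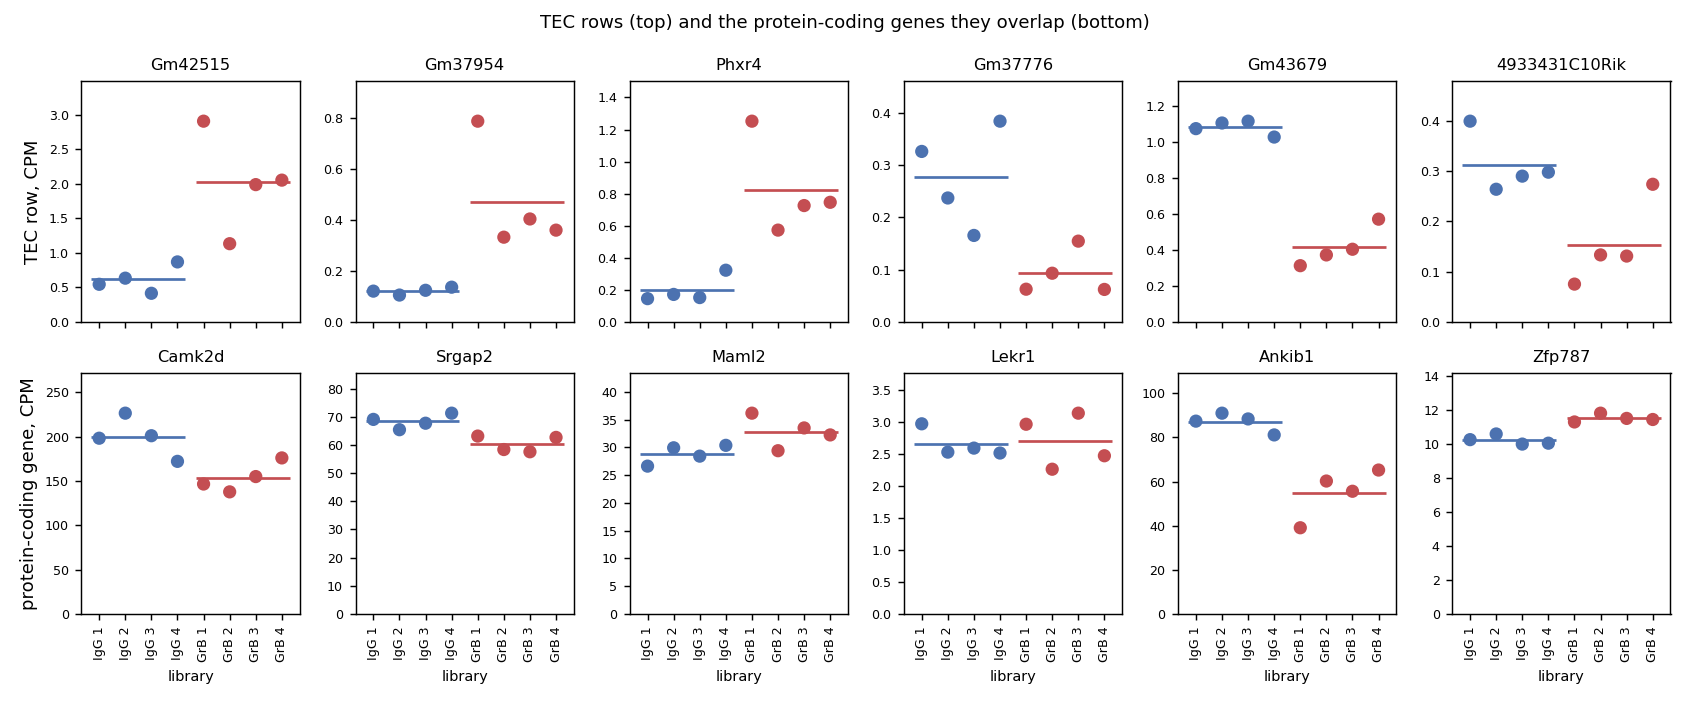
TMM-scaled CPM (y axes from 0, one scale per panel) in each library (x axes) of the 6 TEC members with the smallest p of the ratio test, 3 per direction (top), and of the protein-coding gene each overlaps (bottom); IgG in blue, GrB in red, lines at group means. Gm42515, Gm37954 and Phxr4 are higher in every GrB library, while Camk2d and Srgap2 have lower GrB means and Maml2 a slightly higher one.

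Some genes held several same-strand members, whether intron-only or sharing exon bases. There were 48 genes with at least 2 same-strand members, 116 members in all, and in 31 of these genes every member had a fold change above 0. In 14 every member was higher at an unadjusted p under 0.05. Of all 372 tested same-strand members, 294 were above 0 and 184 (49.5%) were higher, where 17.3% of all rows tested were higher. With such shares many genes of this kind would occur in any case, so these counts show nothing particular to genes with several members. In 4 (Slc39a8, Zfp280d, Fbxl5 and St7) no tested member was above 0. Members of 1 gene lie within the span of its precursor, and they are not counted here as independent of each other.

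Apbb2, which encodes an adaptor that binds the amyloid precursor protein, held 5 members, the most of any gene, and all 5 were higher, with log2 fold changes of 1.30 to 2.05. Its most abundant member, Gm43343, was at 0.810, 0.659, 0.869 and 1.80 CPM in IgG and 2.84, 1.44, 3.77 and 2.11 CPM in GrB tumours, so IgG replicate 4 lay above GrB replicate 2. Apbb2 itself was at 80.3 to 93.0 CPM in IgG and 56.9 to 89.0 CPM in GrB tumours, with a log2 fold change of -0.24 (SE 0.16).

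Sema3a, a secreted guidance ligand gene, held 3 members at log2 fold changes of 1.15 to 1.48, while Sema3a was at 450 to 537 CPM in IgG and 277 to 391 CPM in GrB tumours without overlap (log2 fold change -0.55, SE 0.11). Maml3, a relative of Maml2, held 3 at 1.25 to 2.04 with the gene at -0.33 (SE 0.11), and Ldb2, which encodes a LIM domain-binding cofactor, held 3 at 1.51 to 2.94 with the gene at -0.01 (SE 0.21). In Camk2d, 4 members ran from 0.32 to 1.71 and 2 of them were higher at an unadjusted p under 0.05. In Fgfr2, a receptor for fibroblast growth factors, 4 members ran from 0.26 to 1.92 and the gene was itself at 1.91 (SE 0.73), with 5.06 CPM in GrB replicate 2 and 0.317 to 1.77 CPM elsewhere. The Fgfr2 row runs over chr7:129764181-132725079, a span long enough to hold other genes. Whether these 4 members lie in another gene of that span was not examined. Other genes with several members did not follow: in Picalm 4 members ran from -0.34 to 1.09 and 1 was higher at an unadjusted p under 0.05, in Kansl1l 4 ran from -0.13 to 0.87 and in Nedd4 3 ran from -0.43 to 0.33, with 0 higher in either. Apbb2 and the genes named in this paragraph were chosen after their values were seen.

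The most abundant same-strand members had smaller fold changes and uncertain counts. Gm44510 (chr7:55662696-55667227, minus strand), in an intron of Nipa1, a magnesium transporter gene, was at 46.1, 61.1, 60.1 and 57.2 CPM in IgG and 106, 84.4, 71.2 and 77.4 CPM in GrB tumours, with a log2 fold change of 0.59 (SE 0.14). All GrB tumours were above all IgG tumours. It spans Rps12l1, a processed pseudogene of a ribosomal protein on the other strand, which was at 318 to 375 CPM in IgG and 460 to 749 CPM in GrB tumours. None of the counts of Gm44510 was whole, so reads of the pseudogene and of the member cannot be told apart. Its log2 ratio to Nipa1 changed by 0.71 (SE 0.20, limma, adjusted p = 0.0359).

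Gm38056, in an intron of Plcl1, a phospholipase C-like gene, spans another processed pseudogene, Gm6644, and was at 10.7 to 14.1 CPM in IgG and 12.4 to 20.7 CPM in GrB tumours. Gm38312, in an intron of Sh3bp4, was at 4.63 to 8.18 and 5.42 to 6.95 CPM. Gm49759, which shares exon bases with the pyruvate kinase gene Pkm over 19.7% of its span, was at 40.5 to 69.1 and 44.7 to 49.7 CPM. These 3 overlapped between the groups. Without Gm44510 the summed intron-only level was 153 ± 35.4 CPM in IgG and 259 ± 75.9 CPM in GrB tumours (SD, n = 4 each), and the groups overlapped.

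Opposite-strand members are given by whether they faced exons. The 33 tested members that shared no exon base with the facing gene had a median log2 fold change of 0.57, with 8 (24.2%) higher and 2 lower, and the 105 that did had 0.10, with 16 (15.2%) higher and 6 lower, where 17.3% of all rows tested were higher. The difference was not tested. Gm47603, opposite an intron of Aopep, an aminopeptidase gene, was at 0.230, 0.211, 0.152 and 0.459 CPM in IgG and 1.57, 0.519, 0.797 and 0.883 CPM in GrB tumours, with no overlap and a log2 fold change of 1.83 (SE 0.44), while Aopep was at 0.07 (SE 0.12). Gm44775, of which 95.9% of the span faces exons of Pex11g, a peroxisomal membrane protein gene, was at 0.181 to 0.369 CPM in IgG and 0.684 to 1.49 CPM in GrB tumours, a log2 fold change of 1.81 (SE 0.34), and Pex11g was at 0.36 (SE 0.16).

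5830462I19Rik, opposite Scap, the escort protein gene of sterol sensing, was lower in all GrB tumours, at 0.676 to 1.41 against 1.80 to 2.31 CPM, with a log2 fold change of -0.79 (SE 0.24). Gm44669, opposite Ttc23, was at 0.911 to 1.25 CPM in IgG and 0.513 to 0.908 CPM in GrB tumours. 4933431C10Rik, opposite the zinc finger gene Zfp787, was at 0.264 to 0.399 CPM in IgG and 0.0751, 0.133, 0.131 and 0.274 CPM in GrB tumours, so GrB replicate 4 overlapped the IgG group. Its log2 ratio to Zfp787 changed by -1.19 (SE 0.35, limma, adjusted p = 0.0406), and the third opposite-strand member with a lower ratio, beside 5830462I19Rik, was Gm43980, opposite Tra2a.

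The 4 most abundant opposite-strand members all faced exons, had no whole counts and overlapped between the groups. Gm10252, opposite the ferritin light chain gene Ftl1, was at 16.8 to 19.9 CPM in IgG and 16.5 to 24.7 CPM in GrB tumours, although Ftl1 was higher in all 4 (log2 fold change 0.44, SE 0.12). Gm49338, opposite the beta-secretase gene Bace1, had a log2 fold change of -0.04 (SE 0.09), and Gm43737, opposite the mitochondrial import gene Mtx1, had -0.06 (SE 0.16). ENSMUSG00000103009, opposite the phosphate transporter gene Slc20a1, had -0.26 (SE 0.12).

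Among members outside protein-coding genes, 1 row set the summed level. The 159 members summed to 218 ± 20.1 CPM in IgG and 318 ± 93.8 CPM in GrB tumours (SD, n = 4 each). Gm37376 (chr19:5851969-5852421, plus strand), which lies within the nuclear lncRNA gene Malat1 on the other strand, was at 22.2, 16.0, 15.5 and 36.7 CPM in IgG and 232, 57.8, 79.8 and 77.1 CPM in GrB tumours. Without it the sums were 196 ± 13.3 and 206 ± 14.5 CPM, which is within their spread. Its log2 fold change was 2.30 (SE 0.50), but it had no whole count, and reads of Gm37376 and of Malat1 cannot be told apart.

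Gm44250, the member of highest level in this class, starts 366 bases past the paraoxonase gene Pon3 and was at 71.9 to 84.5 CPM in IgG and 69.7 to 86.8 CPM in GrB tumours. Gm43719, 1470 bases past Sema3a, was at 16.0 to 20.7 and 15.1 to 16.6 CPM. Both overlapped between the groups. The 37 tested members within 5000 bases downstream of a same-strand gene had a median log2 fold change of 0.06, and the 113 others 0.34.

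Gm42547 was at 7.50 to 11.04 CPM in IgG and 5.70 to 7.58 CPM in GrB tumours, with a log2 fold change of -0.44 (SE 0.15) and a small overlap. Gm47640 was lower without overlap, at 1.13 to 1.41 against 0.692 to 0.952 CPM, and so was Gm37131, which lies within the lncRNA row Gm37359 on its strand, at 0.343 to 0.472 against 0.167 to 0.336 CPM. Gm45745 was the fourth lower at an unadjusted p under 0.05.

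5930409G06Rik had the largest log2 fold change of the named members, 3.06 (SE 0.64), but rested on few counts in IgG tumours. It passed the low-count filter mainly through the GrB group, where it is high. It was at 0.0363, 0.171, 0.0138 and 0.0496 CPM in IgG and 0.764, 0.573, 0.714 and 0.249 CPM in GrB tumours, without overlap. Gm44829, opposite the lncRNA gene Snhg14, was at 0.399, 0.185, 0.345 and 0.360 CPM in IgG and 0.876, 0.692, 0.904 and 0.721 CPM in GrB tumours, again without overlap, a log2 fold change of 1.30 (SE 0.27). Snhg14 itself was at 0.248 to 0.670 and 0.410 to 0.639 CPM, and the groups overlapped.

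Members with and members without a poly(A) signal at their annotated end had medians above 0 in each class. Intron-only members with a signal had a median log2 fold change of 0.65, with 34 of 74 higher at an unadjusted p under 0.05, and those without one had 0.99, with 142 of 266 higher. Of all rows tested, 17.3% were higher. The medians were 0.08 and 0.33 for opposite-strand and 0.14 and 0.40 for non-overlapping members, so in each class the members with a signal had the smaller one. These differences were not tested.

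RNAs known to stay in the nucleus were given beside the members. Of a list of 10 such lncRNAs, 9 were tested, and 3 were higher and 0 lower at an unadjusted p under 0.05, where 17.3% and 17.8% of all rows tested were. Malat1, a lncRNA of nuclear speckles, was at 647, 714, 683 and 962 CPM in IgG and 2954, 1269, 1400 and 1512 CPM in GrB tumours, a log2 fold change of 1.25 (SE 0.28). Neat1, the scaffold of paraspeckles, had 0.57 (SE 0.17), and Kcnq1ot1, an imprinting lncRNA, had 0.84 (SE 0.26). The other 6 ranged from Meg3 at 0.93 (SE 0.58) to Peg13 at -0.20 (SE 0.16), with Rian at -0.04 (SE 0.58) and Pvt1 at -0.0025 (SE 0.13), and GrB replicate 1 was the lowest library for Peg13 at 19.5 CPM. In the 3 that were higher, which are the ones plotted, as in the intron-only sum, GrB replicate 1 was the highest of all libraries and IgG replicate 4 the highest of the IgG group. The part that nuclear RNA as a whole takes in the members' values was not tested.

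**Figure D5:**
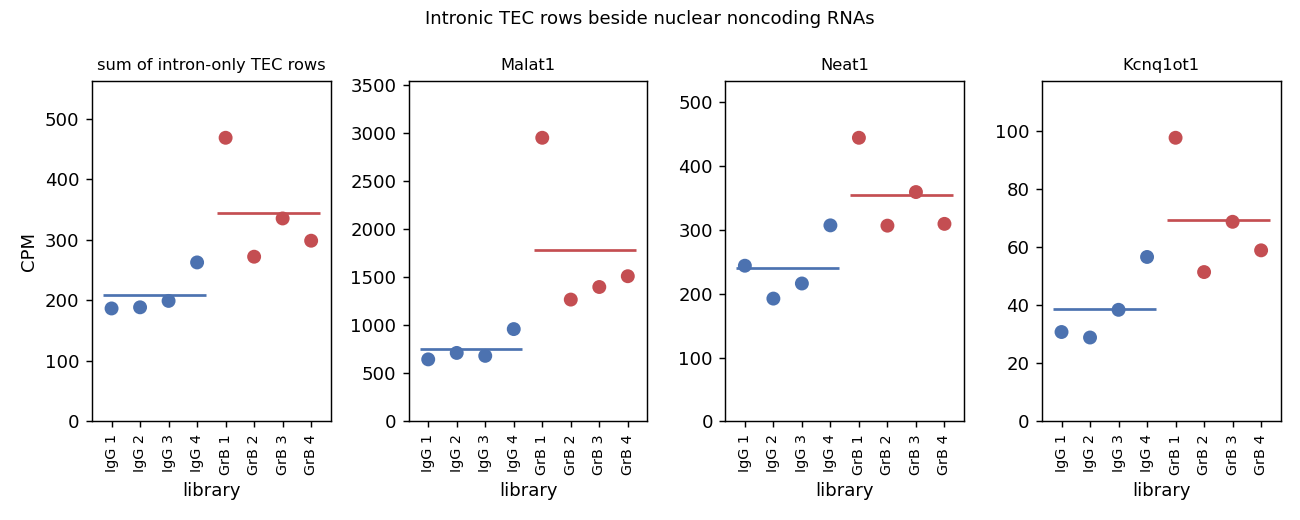
TMM-scaled CPM (y axes from 0, one scale per panel) in each library (x axes) of the summed intron-only members, Malat1, Neat1 and Kcnq1ot1; IgG in blue, GrB in red, lines at group means. GrB replicate 1 is the highest library in all 4 panels and IgG replicate 4 the highest IgG library. The lncRNAs plotted are those of the list that were higher at an unadjusted p under 0.05. Of the others tested, Firre, Meg3, Rian and Peg13 were highest in another library, while Airn and Pvt1 were highest in GrB replicate 1.

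Markers of other cell types also differed between the tumours. The 6 T cell markers, all above 0 in every library, summed to 1.09 to 3.48 CPM in IgG and 39.9, 18.4, 2.81 and 9.64 CPM in GrB replicates 1 to 4, and the 5 macrophage markers to 526 to 802 and 1988, 1417, 839 and 853 CPM. The macrophage difference lay in the complement genes C1qa, C1qb and C1qc, with log2 fold changes of 1.14 to 1.19, while Csf1r had 0.04 (SE 0.14) and Adgre1 0.31 (SE 0.22). The 6 skeletal muscle markers summed to 37.3 to 172 CPM in IgG and 2088, 270, 335 and 35.5 CPM in GrB tumours. The 5 epidermis markers reached 1891 CPM in GrB replicate 2 and 6.50 to 16.2 CPM elsewhere, and the 5 adipocyte markers 376 CPM in GrB replicate 3 and 46.3 to 124 CPM elsewhere. The 5 B cell markers summed to 0.629 to 0.955 CPM in IgG and 1.19 to 5.06 CPM in GrB tumours, the 4 endothelial ones to 112 to 220 and 142 to 217 CPM, and the 6 of carcinoma epithelium to 473 to 554 and 467 to 803 CPM. Their part in the members' values was not tested.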

How the data were processed

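Per the labels' protocols, poly(A) RNA of 8 tumours was made into dUTP-stranded libraries with random priming. Demultiplexing used bcl2fastq 2.19.1.403 and alignment used STAR on GRCm39, per the submitters' processing notes. Which program counted reads, on which annotation and with what use of strand was not stated in any source used. The authors deposited estimated counts per gene, many not whole, and CPM made from them. Counts were rounded, and rows were kept by filterByExpr (19718 rows), scaled by TMM and compared with edgeR 4.0.16 (robust quasi-likelihood, R 4.3.3), with Benjamini-Hochberg adjustment over all rows. Printed CPM are TMM-scaled. The ratio test used limma 3.58.1 on log2 CPM with a prior count of 2, adjusted over 2162 pairs. Alternatives included DESeq2 1.42.0, limma-voom, limma on the deposited CPM on a log2 scale, other scaling and each library left out. The steps were tested on simulated data. GENCODE M21 (GRCm38) gave exon overlap and transcript sequences by gene identifier, with no coordinates taken from it; spans equalled those of the deposited table for 95.3% of shared genes.

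Named members are, per overlap class, the 4 of highest mean CPM and the 2 per direction of smallest unadjusted p at a mean of at least 0.25 CPM, any behind a count of 5 or fewer, and the 3 pairs per direction of smallest ratio p. Members and lists were chosen with earlier results of these data known.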

Additional observations from a re-analysis of the deposited data

Results flagged for a closer look

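In 62 groups of 4 libraries tested for a library far from the other 3 (Dixon's test at the 95% level), of which chance flags about 1 in 20, 5 were flagged, and 4 of them by GrB replicate 1. Gm37376, within Malat1 on the other strand, was at 232 CPM there, against 57.8 to 79.8 CPM in the other GrB tumours, and the summed level of members outside protein-coding genes was 457 CPM, against 256 to 288 CPM. Gm37954, in an intron of Srgap2, was at 0.789 CPM there, against 0.333 to 0.404 CPM. ENSMUSG00000103009, opposite Slc20a1, was low there at 5.30 CPM, against 6.45 to 6.57 CPM. Phxr4, in an intron of Maml2, was high in IgG replicate 4 at 0.322 CPM, against 0.145 to 0.171 CPM in the other IgG tumours.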

How the results depend on the processing

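No paired analysis was possible because the replicate numbers follow accession order and pair nothing. Members higher at an unadjusted p under 0.05 numbered 158 to 297 with 1 library left out, 154 without both U libraries and 74 among members of at least 400 counts, and lower ones 11 to 29 and, at 400 counts, 7. Of all rows, 12.1% to 20.1% were higher and 11.4% to 18.9% lower with 1 library left out, and 13.9% higher without both U libraries. The minimum of 400 counts leaves a smaller set of members, in which the same-strand, opposite-strand and non-overlapping medians were 0.84, 0.16 and 0.19. The share of all rows, or of all pairs, called at that minimum was not worked out. Counts of calls at 400 counts, here and for the ratio, therefore cannot be read against other rows. Adjusted calls numbered 0 to 104 with 1 library left out (at most 15.5% of members, against 17.1% of all rows) and 150 by DESeq2 (23.9%, against 24.5%). TEC pairs with a higher ratio numbered 5 to 217 with 1 library left out, 0 without both U libraries and 61 at 400 counts, and with a lower ratio 0 to 6, 0 without both U libraries, 1 without the filter and 3 with a prior count of 0.5. Calls over all pairs, in either direction, numbered 21 to 497 with 1 library left out and 0 without both U libraries. The same-strand median was 0.46 on log2(CPM + 0.25) and 0.17 on log2(CPM + 1), scales that compress low rows, and the non-overlapping median 0.077 on the latter. After the data were seen, the same-strand class was limited to members sharing exon bases, which gave a median of -0.088 and a summed difference, GrB minus IgG, of -4.54 CPM, and Gm37376 was left out of the non-overlapping sum, whose difference went from 99.3 to 10.3 CPM.

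Fold changes near 0 changed sign. Gm10252 was at -0.067 without GrB replicate 2. Gm38312 was at 0.00063 on log2(CPM + 0.25), 0.013 with upper quartile scaling, 0.0036 without GrB replicate 4 and 0.12 without IgG replicate 4, with -0.17 the lowest value of any library left out. Gm43737 was at 0.0062 with upper quartile scaling, 0.013 without GrB replicate 4 and 0.076 without IgG replicate 3, with -0.12 the lowest. Gm44250 was at 0.0082 on log2(CPM + 0.25), 0.0081 on log2(CPM + 1), 0.048 with upper quartile scaling, 0.022 without GrB replicate 3, 0.028 without GrB replicate 4, 0.027 without IgG replicate 3, 0.011 without IgG replicate 4 and 0.0024 without both U libraries, with -0.077 the lowest of any library left out. Gm49338 was at 0.016 with upper quartile scaling. The cause was not tested. Upper quartile scaling took the median of all rows from 0.03 to 0.09, with 21.6% higher and 13.6% lower. At about 0.0121 to 0.0135 CPM per count, a member at 0.1 CPM rests on few counts per library, which limits its fold change.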
